A study of Mus musculus with 9 samples.

Results

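The nuclear genes for the subunits of the 5 oxidative phosphorylation complexes were followed across whole mouse knee joints in 3 groups. A gene was taken where it was protein-coding, its symbol (GRCm38 names) began as those of the subunits do (Nduf followed by a, b, c, s or v and a digit, Sdha to Sdhd, Uqcr, Cox4 to Cox8, Atp5), and its counts summed to at least 100 over the 9 libraries. This gave 82 of the 53379 gene IDs in the tables, 37 in complex I, 4 in complex II, 8 in complex III, 16 in complex IV and 17 in complex V, and all 82 were among the 17478 genes tested. The lowest members were Ndufb2 with 893 counts in sum, Cox4i2 with 919 and Ndufb9 with 1303. Outside the limit were 2 protein-coding genes, Cox7b2 and Cox8c, both with 0 counts in every library, and 12 matching symbols were not protein-coding, among them Ndufb1-ps with 3010 counts. The symbol rule left some mismatches with biochemistry. Ndufa4 and its paralog Ndufa4l2 were counted in complex I by name, although the Ndufa4 protein is now placed in complex IV, and Cox7a2l and Atp5s are not classical subunits.

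The study used male C57BL/6 mice in a surgical model of osteoarthritis, in which anterior cruciate ligament transection (ACLT) destabilises the knee. In both operated groups ACLT was done at 8 weeks of age, a lentivirus was placed in the joint cavity 1 week later, and joints were taken 8 weeks after the virus. The groups were joints without operation (Non surgery), ACLT joints with the lentivirus for Luc, the control virus (Luc), and ACLT joints with the lentivirus for PC2 (PC2). Each group was 3 libraries, and because the RNA of a group was mixed before 3 technical repeats were sequenced, each group was 1 pool and every p-value below measures technical spread, with no difference between mice in it. The labels name no virus for the Non surgery joints, so operation and virus cannot be told apart in comparisons with them. Neither the age of the Non surgery mice nor the number of mice in a pool is given in the sources used here.

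Oxidative phosphorylation takes place in the inner mitochondrial membrane. Complexes I and II feed electrons from NADH and succinate to ubiquinone, complex III passes them to cytochrome c, complex IV hands them to oxygen, and complex V, the ATP synthase, uses the proton gradient built on the way to make ATP. Most subunits are encoded in the nucleus and the rest by mitochondrial DNA, and several complex IV subunits have a broadly expressed isoform and one found mainly in heart and skeletal muscle. A knee joint sample holds cartilage, bone, marrow, synovium, fat and adjoining muscle, and muscle is rich in these complexes.

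Promoter sequences of 4 complex IV genes, muscle and broad isoforms, are shown because the muscle isoforms had the largest falls of all members in Luc against Non surgery. Each is the 250 bases before the RefSeq start site (GRCm38.p6), written 5′ to 3′ on the gene's strand. Capitals mark matches, on either strand, to 5 short motifs searched by their letters. They are NRF1 (GCGCANGC), GABP of the ETS family (CCGGAAG), ERR (AAGGTCA), the E-box of myogenic factors (CAGCTG) and MEF2, whose pattern of letters is not printed here. The Cox8b window lies at chr7:140900447-140900696 on the minus strand, that of Cox8a at chr19:7217617-7217866 on the minus strand, that of Cox7a1 at chr7:30183921-30184170 on the plus strand and that of Cox6a1 at chr5:115348959-115349208 on the minus strand.
Cox8b: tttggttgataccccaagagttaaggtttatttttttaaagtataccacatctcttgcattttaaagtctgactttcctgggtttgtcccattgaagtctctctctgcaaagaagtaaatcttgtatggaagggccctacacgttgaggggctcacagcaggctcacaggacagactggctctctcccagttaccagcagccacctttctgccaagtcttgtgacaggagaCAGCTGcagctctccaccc
Cox8a: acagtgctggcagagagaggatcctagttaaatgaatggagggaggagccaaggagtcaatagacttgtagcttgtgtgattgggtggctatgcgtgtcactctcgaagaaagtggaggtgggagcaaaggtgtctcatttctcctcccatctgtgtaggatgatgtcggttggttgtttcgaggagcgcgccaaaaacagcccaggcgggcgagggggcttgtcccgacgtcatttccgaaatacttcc
Cox7a1: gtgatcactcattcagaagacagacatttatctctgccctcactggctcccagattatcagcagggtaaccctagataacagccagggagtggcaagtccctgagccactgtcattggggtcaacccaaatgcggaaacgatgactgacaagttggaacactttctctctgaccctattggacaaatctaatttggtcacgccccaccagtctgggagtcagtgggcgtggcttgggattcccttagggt
Cox6a1: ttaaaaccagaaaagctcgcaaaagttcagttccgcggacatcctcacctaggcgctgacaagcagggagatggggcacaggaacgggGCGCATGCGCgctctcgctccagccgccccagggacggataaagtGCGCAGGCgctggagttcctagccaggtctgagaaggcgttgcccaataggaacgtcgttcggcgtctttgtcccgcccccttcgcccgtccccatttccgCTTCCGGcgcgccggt
Cox8b, a muscle isoform, held 1 E-box match at base -19 from the start site. Cox6a1, a broad isoform, held 3 NRF1 matches, of which those at -162 and -160 overlap, and 1 GABP match at -16. The windows of Cox8a and Cox7a1 held none of the 5 motifs. Cox7a1 and Cox6a1 are not partners of each other. Of the complex IV isoforms not shown, Cox7a2 and Cox6b2 held none of the motifs and Cox6b1 held 1 GABP match, while Cox6a2, Cox4i1 and Cox4i2 had no window. The matches in Cox6a1 are thus not a trait of the broad isoforms. Of the 82 members, 65 had a window in the RefSeq table. The NRF1 letters stood in 17 of them (26.2%), against 8.49% of 26742 windows of all genes, and the GABP letters in 11 (16.9%), against 7.1%. The ERR letters stood in 5 windows (7.69%, against 4.07%), the E-box in 6 (9.23%, against 12.8%) and the MEF2 motif in 0 (against 2.98%). NRF1 and GABP are transcription factors known for activating respiratory chain genes. These are matches of letters, and binding was not measured.

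Library totals in genes lay between 17835989 and 19004316 counts. Of all counts in genes, the 82 members took 1.002% ± 0.03 (SD, n = 3) in Non surgery libraries, 0.658% ± 0.016 in Luc libraries and 0.746% ± 0.008 in PC2 libraries. Luc replicate 2 stood apart for short transcripts: over the 27 members with the shortest transcripts, the summed level in CPM (counts scaled to a common library size with edgeR's TMM factors) was 1017 there and 912 and 918 in the other Luc libraries. Non surgery replicate 2 likewise had 1407 CPM against 1263 and 1312. The share of reads that met no counted feature also separated the groups. It was 7.29% to 7.37% in Non surgery, 8.89% to 9.25% in Luc and 8.05% to 8.17% in PC2 libraries, and its part in the results below was not tested.

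Operated joints with the control virus held less RNA for nearly every subunit than unoperated joints. Of the 82 members, 74 fell, 3 rose and 5 did not pass (edgeR's quasi-likelihood test, Benjamini-Hochberg adjusted p under 0.05 over all genes tested), where 27.7% of all genes tested fell and 31.1% rose. Their median log2 fold change was -0.59, with a range from -1.49 to 2.68, against 0.03 for all genes tested. With a change of at least 1.5-fold also required, 42 members fell and 2 rose, against 12.5% and 15.6% of all genes. All 3 Luc libraries lay below all 3 Non surgery libraries for 72 members, against 29.8% of all genes. When libraries were scaled by size alone, the all-gene median went from 0.03 to 0.19 and the members' median to -0.43. Such scaling shifts all genes alike, so the distance of 0.616 below all genes stayed the same by construction and tests nothing. The members that fell at least 1.5-fold went from 42 to 26. In bulk samples such as these, fewer cells of a type and less RNA per cell cannot be told apart.

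**Figure D1:**
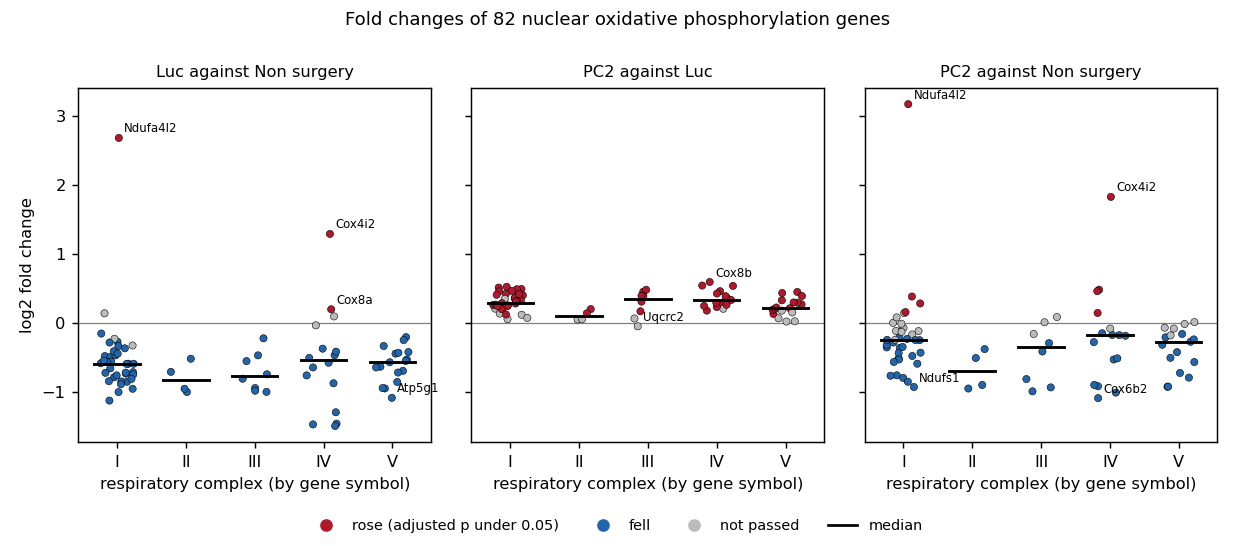
Log2 fold changes of the 82 members in the 3 comparisons, 1 point per gene, by complex as the gene symbols assign it, with horizontal bars at the medians. In Luc against Non surgery all but 5 of the 82 points lie below 0, with Ndufa4l2 at 2.68 and Cox4i2 at 1.29. In PC2 against Luc the points are compressed between -0.05 and 0.59.

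Complex I, the NADH dehydrogenase, had 33 of 37 members lower in Luc than in Non surgery joints, with a median log2 fold change of -0.59. Ndufs1, the largest iron-sulfur subunit, had 221, 207 and 206 CPM in the Non surgery and 107, 105 and 105 CPM in the Luc libraries, so the groups were far apart. It fell by 1.0 ± 0.04 on the log2 scale (SE, edgeR adjusted p = 4.2e-13). The flavin-binding subunit Ndufv1, which oxidises NADH, fell by 0.89 ± 0.04, and its partner Ndufv2 by 0.81 ± 0.04. Ndufs7 and Ndufs8, which carry the last iron-sulfur clusters before ubiquinone, fell by 0.85 ± 0.07 and 0.59 ± 0.06. The 8 members of the NADH-oxidising module had a median of -0.65, the 8 of the ubiquinone-reducing module -0.73 and the 19 of the membrane arm -0.56, and these medians were not tested against each other.

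The members of complex I that did not pass in Luc against Non surgery were Ndufa2, Ndufb2 and Ndufa12. Ndufa2 differed by -0.23 ± 0.10 (edgeR adjusted p = 0.052), and it passed in 7 other settings of the fit or selections of libraries. Ndufa12, named after its values were seen, had 15.6, 17.3 and 15.7 CPM in Non surgery and 8.78, 22.1 and 7.87 CPM in Luc libraries. Its Luc replicate 2 was higher than every Non surgery library and the other Luc libraries were lower than all of them. Without that library its log2 fold change was -0.96, in place of -0.33.

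Ndufa4l2 (ENSMUSG00000040280, chr10:127514967-127517154 in GRCm38) moved the other way from its paralog. It had 8.45, 8.63 and 6.85 CPM in the Non surgery libraries, 51.7, 52.1 and 49.7 CPM in the Luc libraries and 70.2, 75.2 and 70.1 CPM in the PC2 libraries. The 3 groups did not overlap. Its level was 6.41-fold higher in Luc than in Non surgery joints, a log2 fold change of 2.68 ± 0.07 (edgeR adjusted p = 5.6e-15), the highest of the 82 members, and 8.99-fold higher in PC2 than in Non surgery joints. Ndufa4 fell in the same comparison from 143 ± 3.84 to 82.8 ± 3.30 CPM (SD, n = 3). The log2 ratio of Ndufa4l2 to Ndufa4 went from -4.15 ± 0.19 to -0.69 ± 0.06 (SD, n = 3).

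Ndufa4l2 is known as a target of hypoxia-inducible factor and as a marker of pericytes, the cells around small vessels, so lists of both were counted, each written after the values of the data were known. Of 12 hypoxia-inducible genes, 4 rose and 5 fell in Luc against Non surgery joints, with a median of -0.06, where 31.1% of all genes rose and 27.7% fell. P4ha1, a collagen prolyl hydroxylase subunit, rose by 0.82, and Egln3, an oxygen-sensing hydroxylase, fell by 1.66. The summed level of the list was 1919 to 2004 CPM in Non surgery and 1350 to 1388 CPM in Luc libraries. Of 7 pericyte markers, 3 rose and 1 fell, none was at 0, and the summed levels were 554 to 569 and 700 to 717 CPM. Cspg4 rose by 1.77 and Rgs5 by 0.30, and Abcc9 fell by 0.89. The part of either list in the change of Ndufa4l2 was not tested.

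Complex II, succinate dehydrogenase, is the only complex that also works in the citric acid cycle and has no mitochondrially encoded subunit. All 4 members fell in Luc against Non surgery joints, with a median of -0.83. Sdha, the flavoprotein that oxidises succinate, had 542, 565 and 559 CPM in Non surgery and 279, 275 and 281 CPM in Luc libraries, without overlap, and fell by 0.999 ± 0.03 on that scale (edgeR adjusted p = 5e-14). The iron-sulfur subunit Sdhb fell by 0.95 ± 0.05. The membrane anchors Sdhc and Sdhd fell by 0.71 ± 0.04 and 0.52 ± 0.04.

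Complex III, the cytochrome bc1 complex, had all 8 members lower, with a median of -0.78. The core proteins Uqcrc1 and Uqcrc2 fell by 0.998 ± 0.04 and 0.94 ± 0.04, and the Rieske iron-sulfur protein Uqcrfs1 by 0.98 ± 0.04. Uqcrfs1 had 207, 222 and 208 CPM in Non surgery and 111, 109 and 103 CPM in Luc libraries. Among small subunits Uqcr10 fell by 0.74 ± 0.08, and the least change of this complex was that of the hinge protein Uqcrh, -0.22 ± 0.05, which passed but did not with library size alone (-0.06).

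In complex IV, cytochrome c oxidase, 12 of 16 members fell and 2 rose, with a median of -0.54. Its single-gene subunits Cox5a and Cox5b, which wrap the catalytic core, fell by 0.87 ± 0.06 and 0.64 ± 0.06. The muscle isoforms fell further than any other member of the 5 complexes. Cox8b fell 2.81-fold, from 34.4, 38.9 and 34.1 CPM in Non surgery to 12.5, 13.6 and 12.1 CPM in Luc libraries, a log2 fold change of -1.49 ± 0.09 (edgeR adjusted p = 2.3e-10). Cox6a2 fell 2.77-fold, from 170, 193 and 189 CPM to 59.9, 73.3 and 66.0 CPM. Cox7a1 fell 2.75-fold, from 28.2, 31.6 and 26.8 CPM to 8.42, 13.7 and 9.43 CPM. For these 3 genes no Luc library reached the lowest Non surgery library. Cox6b2, an isoform described mainly in testis, fell by 1.29 ± 0.11.

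The broad partners of those isoforms changed less. Cox8a rose by 0.20 ± 0.06 (edgeR adjusted p = 0.0054), from 68.8, 71.9 and 66.2 CPM to 76.5, 86.4 and 74.5 CPM, and no longer passed without Luc replicate 2, with a log2 fold change of 0.13. Cox6a1 differed by 0.10 ± 0.07 and did not pass (0.26 with library size alone and 0.19 without Non surgery replicate 2, both passing). Cox7a2 fell by 0.37 ± 0.06, Cox6b1 by 0.51 ± 0.05 and Cox4i1 by 0.47 ± 0.05. Cox4i2 (ENSMUSG00000009876, chr2:152754173-152765037 in GRCm38), an isoform best known from lung and induced at low oxygen, rose 2.45-fold, from 1.86, 2.88 and 2.22 CPM to 6.19, 5.23 and 5.66 CPM (log2 1.29 ± 0.16).

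The ratio of isoform to partner summarises this within each library, where library scaling cancels. From Non surgery to Luc libraries the log2 ratio moved by -1.68 for Cox8b to Cox8a, by -1.57 for Cox6a2 to Cox6a1, by -1.11 for Cox7a1 to Cox7a2, by -0.78 for Cox6b2 to Cox6b1, by 1.75 for Cox4i2 to Cox4i1 and by 3.46 for Ndufa4l2 to Ndufa4. In all 6 pairs the 3 Luc ratios lay apart from the 3 Non surgery ratios. An exact two-sided permutation test gave p = 0.1 for each, the smallest value that 3 against 3 libraries allow, and 0.129 after adjustment over 18 tests.

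**Figure D2:**
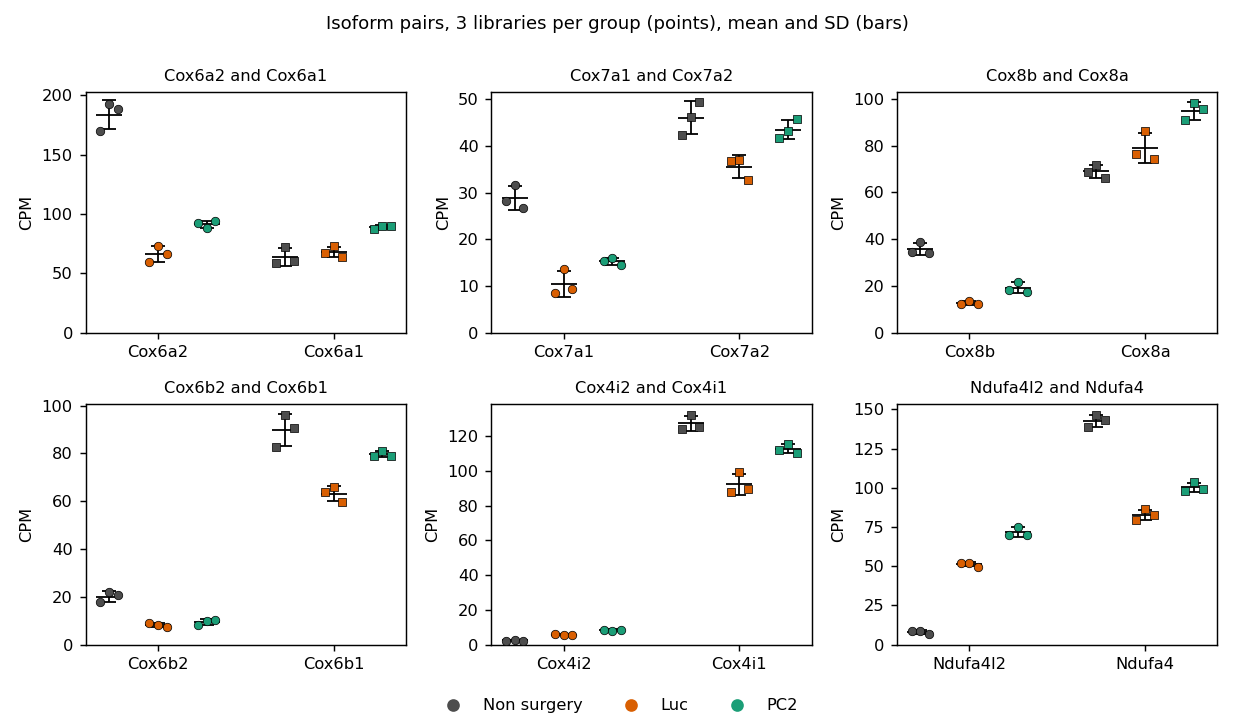
Levels in CPM of 6 isoform pairs in each of the 9 libraries (points), with the mean and SD of each group (bars); circles are the first and squares the second gene of a pair. Cox6a2, Cox7a1 and Cox8b are highest in the Non surgery libraries, while Ndufa4l2 and Cox4i2 are lowest there.

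In complex V, the ATP synthase, all 17 members fell, with a median of -0.57 (-0.66 without Luc replicate 2). The catalytic β subunit Atp5b had the highest level per kilobase of transcript among the 82 members in Non surgery, 858 ± 18.6 CPM per kilobase (SD, n = 3), followed by the α subunit Atp5a1 with 575 ± 15.6. They remained the highest in Luc libraries at 446 ± 4.66 and 298 ± 5.33. Atp5b had 1604, 1674 and 1651 CPM in Non surgery and 853, 865 and 847 CPM in Luc libraries, and fell by 0.94 ± 0.03 (edgeR adjusted p = 1.1e-14). Atp5a1 fell by 0.95 ± 0.03 and the rotor subunit Atp5c1 by 0.85 ± 0.03, whereas the small rotor subunit Atp5e fell by 0.42 ± 0.05. The c-ring has 3 genes for 1 identical mature protein: Atp5g1 fell by 1.08 ± 0.07 and Atp5g2 by 0.21 ± 0.06, and Atp5g2 no longer passed with library size alone (-0.05). Atp5o, in the peripheral stalk, fell by 0.72 ± 0.05, and 47.9% of its exon bases are shared with Gm15976, so its counts depend on how overlapping reads were assigned.

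PC2 joints held slightly more subunit RNA than Luc joints. Of the 82 members, 65 rose, 0 fell and 17 did not pass, against 16.1% of all genes that rose and 18.6% that fell. At an unadjusted p under 0.05, 67 rose and 0 fell by edgeR. DESeq2 gave 65 and 0 at an adjusted p under 0.05. The median log2 fold change was 0.28, with a range from -0.05 to 0.59, against 0.01 for all genes. All 3 PC2 libraries lay above all 3 Luc libraries for 70 members, against 23.3% of all genes. The changes were small: 1 member, Cox8b, passed with at least a 1.5-fold rise, against 3.14% of all genes, and the number was 4 without Luc replicate 2 and 0 without Luc replicate 3 or PC2 replicate 2.

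By complex, 30 of 37 members of complex I rose in PC2 against Luc, 2 of 4 of complex II, 6 of 8 of complex III, 15 of 16 of complex IV and 12 of 17 of complex V. Their medians were 0.29, 0.10, 0.35, 0.34 and 0.21. Many of the large catalytic subunits were among those that did not pass. Atp5b had 851, 881 and 872 CPM in PC2 libraries, overlapping the Luc libraries, with a log2 fold change of 0.02 ± 0.03. Atp5a1 differed by 0.02 ± 0.03, Sdha by 0.05 ± 0.03, Sdhb by 0.05 ± 0.05, Uqcrc1 by 0.07 ± 0.04, Uqcrc2 by -0.05 ± 0.04 and Ndufs1 by 0.07 ± 0.04. Ndufv2, in contrast, rose by 0.25 ± 0.04, with 99.0, 101 and 98.6 CPM in PC2 libraries, all above the Luc libraries.

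The largest rise in PC2 against Luc was that of the muscle isoform Cox8b. It rose by 0.59 ± 0.09 to 18.4, 21.8 and 17.4 CPM (edgeR adjusted p = 0.00011), above every Luc library and below every Non surgery library. Cox7a1 rose by 0.54 ± 0.13 and Cox6a2 by 0.46 ± 0.06. Their broad partners rose as well, Cox8a by 0.26 ± 0.05, Cox7a2 by 0.29 ± 0.06 and Cox6a1 by 0.39 ± 0.07. The ratios of isoform to partner moved by 0.32, 0.28 and 0.08 on the log2 scale, with p = 0.1, 0.3 and 0.4 in exact two-sided permutation tests whose smallest possible value is 0.1. In complex I, Ndufa6 rose by 0.52 ± 0.08, Ndufa2 by 0.51 ± 0.09 and Ndufa13, which also shares 30% of its exon bases with Tssk6, by 0.49 ± 0.07. In complex III, Uqcr11 and Uqcr10 rose by 0.48 ± 0.10 and 0.45 ± 0.08, and Uqcrq, the ubiquinone-binding small subunit, by 0.39 ± 0.06. In complex V, Atp5k rose by 0.45 ± 0.11, Atp5e by 0.43 ± 0.05 and Atp5mpl by 0.39 ± 0.06. Cox4i2 and Ndufa4l2 rose by 0.54 ± 0.13 and 0.49 ± 0.06. Of the members named, Ndufv1 (0.12 ± 0.04), Sdhd (0.14 ± 0.04), Atp5c1 (0.13 ± 0.03), Atp5g2 (0.19 ± 0.06) and Cox7a2l (0.18 ± 0.05) rose but each lost the call when at least 1 Luc or PC2 library was left out. Without Luc replicate 2, Ndufv1 was at 0.12 and Atp5g2 at 0.12, and Ndufa12, which did not pass over all libraries (0.21 ± 0.26), passed at 0.84 (edgeR adjusted p = 0.00017).

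Rises in PC2 against Luc were larger in members with short transcripts, a split made after the values were seen. Of the 27 members with the shortest principal transcripts 24 rose, with a median of 0.39, of the 28 of middle length 26 rose, with a median of 0.29, and of the 27 longest 15 rose, with a median of 0.17. Across the 82 members, which share the same 6 libraries, the fold change and the log2 length had a Pearson r of -0.58 and a Spearman rho of -0.57, while across 14803 genes with a length the values were -0.10 and -0.27. Among genes of 600 to 1000 bases the median was 0.18 for all genes and 0.33 for the 30 members, and from 1500 to 2500 bases it was 0.06 and 0.15 (13 members). Below 600 bases all genes had a median of 0.01 and the 20 members 0.42. In Luc against Non surgery the same sets had medians of -0.53, -0.57 and -0.85, from shortest to longest. The part of transcript length in either result was not tested.

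**Figure D3:**
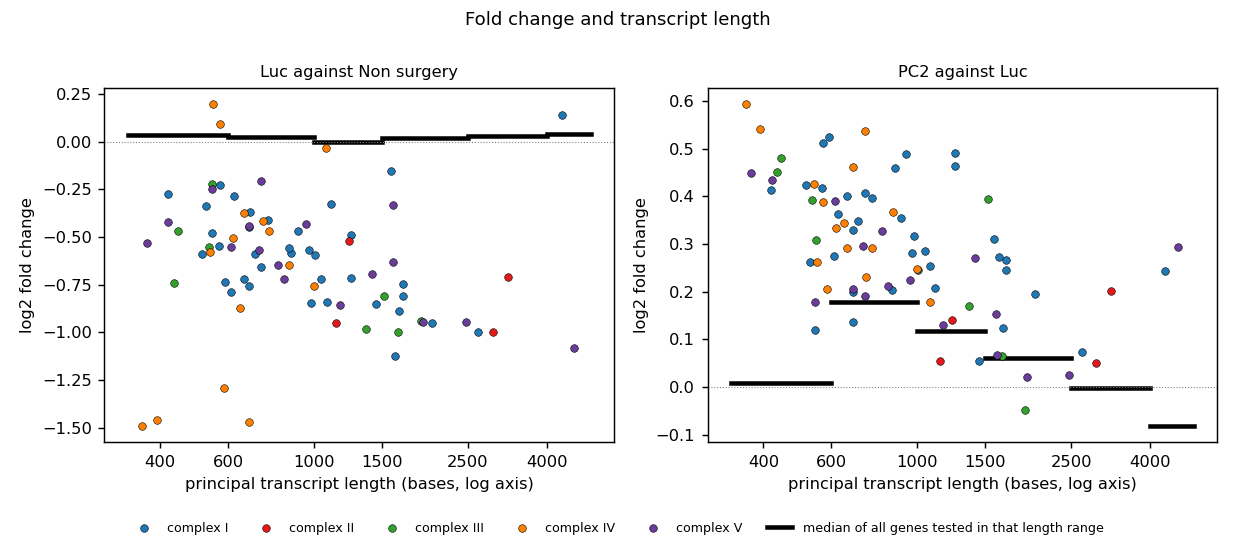
Log2 fold change of each member against the length of its principal transcript (log axis), coloured by complex, with black bars at the median of all genes tested in each length range; Ndufa4l2 and Cox4i2 lie above the left panel. In PC2 against Luc the members lie mostly above the bars and their fold changes are lower at greater length, with Pearson r of -0.58.

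PC2 joints still had lower levels than unoperated joints for most subunits. Of the 82 members, 54 fell, 8 rose and 20 did not pass in PC2 against Non surgery, against 31.2% of all genes that fell and 31.5% that rose. The median was -0.27, and 19 members fell at least 1.5-fold, against 13.6% of all genes. With library size alone the count was 38 lower and 13 higher, so that 25.5% of the calls were rises in place of 12.9%, and the median was -0.12. The medians by complex were -0.25, -0.70, -0.35, -0.18 and -0.27 from I to V. This comparison shares its libraries with both of the others, and its values are given beside theirs as levels, not as separate evidence.

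Some subunits were near the Non surgery level in PC2 joints and others well below it. Atp5b was at 851 to 881 CPM against 1604 to 1674 CPM, a log2 fold change of -0.92 ± 0.03, and Uqcrc2 at -0.99 ± 0.04, Sdha at -0.95 ± 0.03 and Ndufs1 at -0.93 ± 0.04 also fell. Atp5e had 65.3, 70.4 and 67.0 CPM in PC2 and 63.2, 69.8 and 68.0 CPM in Non surgery libraries, which overlapped, with a log2 fold change of 0.01 ± 0.05. Uqcr11 (0.01 ± 0.10) and Ndufa13 (0.002 ± 0.07) also overlapped and did not pass. The muscle isoforms Cox6a2, Cox7a1 and Cox8b remained lower, by 1.01 ± 0.06, 0.92 ± 0.12 and 0.90 ± 0.08. The members that rose were Ndufa4l2, Cox4i2, Cox6a1, Cox8a, Ndufb2, Ndufa2, Ndufv3 and Cox7a2l, the largest after Ndufa4l2 being Cox4i2 at 1.83 ± 0.15 and Cox6a1 at 0.48 ± 0.07. When Non surgery replicate 1 or PC2 replicate 1 was left out, 5 members rose. Ndufa2, Ndufb2, Ndufv3 and Cox7a2l each lost the call without at least 1 of the libraries.

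Summed levels measure RNA, not assembled complexes, and are weighted towards the members with the most counts. In Non surgery, Atp5b and Atp5a1 had means of 1643 and 1420 CPM, of 4905 CPM summed over complex V. The members of complex V summed to 4781, 4997 and 4937 CPM in Non surgery, 2790, 2799 and 2751 CPM in Luc and 2969, 3008 and 2999 CPM in PC2 libraries, so that Luc stood at 56.7% ± 0.52 and PC2 at 61.0% ± 0.42 of the Non surgery mean (SD, n = 3). Complex IV stood at 67.3% ± 3.82 in Luc and 84.5% ± 1.42 in PC2, complex I at 61.5% ± 2.67 and 74.4% ± 0.50, complex III at 55.5% ± 0.98 and 62.6% ± 1.08, and complex II at 54.9% ± 0.56 and 58.6% ± 0.58. For every complex the 3 groups did not overlap.

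The mitochondrially encoded subunits were lower in the operated joints where their counts were steady. In Luc against Non surgery, where 27.7% of all genes fell, 7 of 13 such genes fell and 6 did not pass, as edgeR called them. Among these, mt-Co1, a catalytic subunit of complex IV, fell by 1.05 ± 0.03, and mt-Cytb of complex III fell by 0.995 ± 0.03. The 6 others, mt-Nd3, mt-Nd4l, mt-Co2, mt-Co3, mt-Atp6 and mt-Atp8, varied widely between libraries of the same RNA pool: mt-Co3 had 2074, 40.0 and 645 CPM in the 3 Luc libraries. In PC2 against Luc, 3 of the 13 rose, mt-Co1 (0.14), mt-Cytb (0.14) and mt-Nd6 (0.40), where 16.1% of all genes rose.

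**Figure D4:**
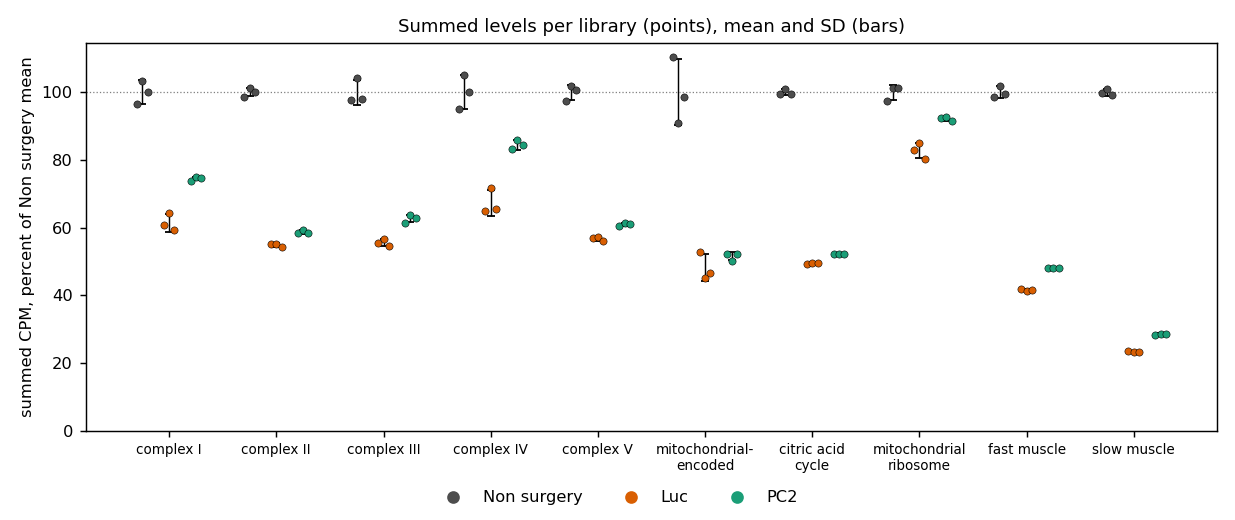
Summed CPM per library as a percentage of the Non surgery mean for the 5 complexes and for 5 related lists (points), with mean and SD (bars). Luc libraries lie lowest for each nuclear list; complex IV is at 67.3% in Luc and 84.5% in PC2, and the slow muscle list at 23.4% and 28.5%.

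Genes that work with the subunits were counted in Luc against Non surgery, where 27.7% of all genes fell and 31.1% rose. All 13 citric acid cycle genes fell in Luc against Non surgery, with a median of -0.92. Of 8 tested electron carriers and subunits with other names, 6 fell, including cytochrome c (Cycs, by 1.13), the cytochrome c1 subunit of complex III (Cyc1, by 0.90) and Etfdh, which brings electrons from fatty acid oxidation (by 1.03). Of 7 tested genes of ATP export and the creatine shuttle, 6 fell, Ckmt2, the creatine kinase of muscle mitochondria, by 1.97, and Slc25a4, the muscle ATP/ADP carrier, by 1.32. Slc25a5, the carrier of many other tissues, rose by 0.11. Of 45 tested assembly factors 27 were lower and 1 higher (median -0.33), and Cox10, an enzyme of heme a synthesis, fell by 1.14. Mitochondrial ribosomal proteins had 44 of 77 tested genes lower and 2 higher (median -0.24), whereas cytosolic ribosomal proteins had 36 of 83 higher and 2 lower (median 0.14).

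In PC2 against Luc, 5 of the 13 citric acid cycle genes rose, with a median of 0.09, as did 4 of 8 carriers (1 fell), 10 of 45 assembly factors, 28 of 77 mitochondrial and 39 of 83 cytosolic ribosomal proteins, with medians of 0.19, 0.13, 0.17 and 0.16, where 16.1% of all genes rose. Uqcc2, an assembly factor of complex III, rose by 0.52 and Atpif1, the inhibitor of ATP synthase, by 0.52.

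Regulators of mitochondrial gene expression differed among themselves. Of 15, 9 fell and 1 rose in Luc against Non surgery, where 27.7% of all genes fell and 31.1% rose. Ppargc1a, a coactivator that drives mitochondrial biogenesis in muscle, went from 45.0 ± 1.0 to 6.52 ± 0.67 CPM (SD, n = 3), a fall of 2.79 on the log2 scale, Ppara fell by 3.59 and Esrrg by 2.45. Esrra fell by 0.90 and Tfam, the mitochondrial DNA packaging factor, by 0.16. Nrf1 was at 0.02 and did not pass, and Gabpa rose by 0.23. In PC2 against Luc, Esrrg rose by 0.60, Esrra by 0.31 and Ppargc1a by 0.31, and Gabpa fell by 0.26.

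Muscle markers moved in the same direction as the subunits. Of all genes, 27.7% fell in Luc against Non surgery and 16.1% rose in PC2 against Luc. All 18 fast skeletal muscle markers fell in Luc against Non surgery, with a median of -1.17, and all 11 slow and oxidative muscle markers fell, with a median of -3.004; none of the 29 was at 0. The fast list summed to 80790 to 83590 CPM in Non surgery, 33760 to 34270 CPM in Luc and 39360 to 39480 CPM in PC2 libraries, and the slow list to 4880 to 4971, 1139 to 1163 and 1388 to 1410 CPM. In PC2 against Luc, 15 of 18 fast markers rose and 1 fell, with a median of 0.24, and 6 of 11 slow markers rose and 2 fell, with a median of 0.30. The log2 ratio of the summed members to the fast list was -2.95 to -2.91 in Non surgery, -2.45 to -2.38 in Luc and -2.47 to -2.44 in PC2 libraries. The members thus fell less than the fast markers, and the ratios of PC2 and Luc libraries overlapped. Against the slow list the ratio was 1.10 to 1.16, 2.44 to 2.51 and 2.36 to 2.37, and against the citric acid cycle genes 1.22 to 1.28, 1.475 to 1.534 and 1.598 to 1.622, in each case without overlap between groups. The part of muscle content in these results was not tested.

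Other cell types that could hold the subunits were also counted. Of all genes, 27.7% fell and 31.1% rose in Luc against Non surgery, and 16.1% rose in PC2 against Luc. Of 5 tested brown fat markers, 1 rose and 3 fell in Luc against Non surgery, and the list of 7 summed to 30.8 to 36.5 CPM in Non surgery, 71.6 to 73.7 CPM in Luc and 71.1 to 74.7 CPM in PC2 libraries. Dio2, a deiodinase, rose by 2.20 and made up most of the sum in the operated joints, while Ucp1, which defines brown fat, was at 0.06 CPM on average in Non surgery and lower in both operated groups. All 13 erythroid markers fell in Luc against Non surgery, with a median of -0.69 and summed levels of 26180 to 28000 and 14750 to 17050 CPM. Of 14 neutrophil markers, 12 fell and 2 rose, with a median of -0.50 (17090 to 17440 and 12650 to 13300 CPM). Of 12 adipocyte markers, 7 fell and 3 rose in that comparison (1630 to 1644 and 919 to 1016 CPM), and 9 rose in PC2 against Luc, with a median of 0.63 (2056 to 2098 CPM in PC2). All 13 chondrocyte markers rose in both comparisons, with medians of 2.15 and 0.79, from 1255 to 1405 CPM through 6458 to 6577 CPM to 10200 to 10330 CPM. The part of these cell types was not tested.

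The genes whose levels followed the members most closely were sought by Pearson's r between log2 CPM and the mean of the members over the 9 libraries, which fall into 3 groups. Among the closest were Iscu (r = 0.996), the scaffold on which iron-sulfur clusters are built, Syngr1 (0.992), Trim7 (0.992) and Fitm1 (0.991), which acts in lipid droplet formation. Iscu had 65.4 ± 2.65 CPM in Non surgery, 44.8 ± 1.72 CPM in Luc and 54.5 ± 0.31 CPM in PC2 libraries (SD, n = 3).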

How the data were processed

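The 9 knee joint libraries were analysed from the counts the authors deposited, whole reads for each of 53379 Ensembl IDs with no normalization. The submitters' processing notes name HISAT2, HTSeq, DESeq2 and mm10 and give no versions. Annotation release, strand setting and read filters are not given in the sources used here. Of all reads in the tables, 7.29% to 9.25% met no counted feature and 5.72% to 6.65% were ambiguous, and both kinds were left out of totals and fits. Within a group, libraries differed by 3.94 to 8.68 in chi-square per degree of freedom, above counting noise, so each counted as its own library.

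Counts were fitted with edgeR 4.0.16 (R 4.3.3), by its quasi-likelihood test in 1 model of the 3 groups over the 9 libraries, after filterByExpr (minimum count 10) and TMM scaling. A gene rose or fell at an adjusted p under 0.05. Isoform ratios were log2 of CPM + 0.1, compared by exact permutation. Gene types, coordinates and principal transcripts came from GENCODE M21 (GRCm38, the mm10 assembly) and promoters from RefSeq (GRCm38.p6). The 17 members without a promoter window are not among the motif counts. Levels between genes are compared as CPM per kilobase of principal transcript.

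The members and lists were chosen with earlier results of these data known. Genes named are, per complex and comparison, the 3 largest changes that passed and the smallest change, the isoform pairs, the core subunits, the members nearest the count limit, the 3 largest changes of each related list, and the 5 nearest genes. A few genes named by this rule are not reported here. Other related genes, Ndufa12, Ndufv3 and Cox7c were named after their values were seen, as were the submodules, the length split and the hypoxia and pericyte lists. Alternatives were median-of-ratios factors, library size alone, DESeq2 1.42.0, no count filter, 2 groups only, a replicate block, leaving out each library and a count limit of 1000, and for the ratios a pseudocount of 1 CPM and raw counts.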

Additional observations from a re-analysis of the deposited data

How the results depend on the processing

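With library size alone as the scaling, which shifts all genes in comparisons with Non surgery, 5 members rose in Luc against Non surgery and 26 fell at least 1.5-fold, with medians of -0.431 for all members and -0.67, -0.615, -0.381 and -0.408 for complexes II to V. In PC2 against Non surgery 13 members then rose, 4 of them at least 1.5-fold, with medians of -0.116 for all members and -0.544, -0.193, -0.022 and -0.113 for complexes II to V. Complex I was shifted as well, and its medians with this scaling are not given here. The sign then changed for 2 members in Luc against Non surgery, for 0 in PC2 against Luc and for 11 in PC2 against Non surgery. Of these, Ndufv3 (-0.153 to 0.007, Luc against Non surgery) and Cox7c (-0.149 to 0.009, PC2 against Non surgery) were calls that were lost, and Cox7a2l (0.126, Luc against Non surgery) and Atp5g2 (0.143, PC2 against Non surgery) became calls. In PC2 against Non surgery the sign also changed for the medians of assembly factors (to 0.015), mitochondrial ribosomal proteins (to 0.079) and hypoxia-inducible genes (to 0.032). In Luc against Non surgery that of hypoxia-inducible genes changed sign (to 0.104). There the medians of assembly factors (-0.166) and mitochondrial ribosomal proteins (-0.082) stayed negative. With a count limit of 1000, 80 members remained and 1 rose at least 1.5-fold in each comparison with Non surgery, since Cox4i2 is below the limit.

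Leaving out each library in turn gave 71 to 75 members lower in Luc against Non surgery, with a complex V median of -0.659 to -0.547 (-0.659 without Luc replicate 2), 60 to 66 higher in PC2 against Luc, of which 0 to 4 were higher by at least 1.5-fold, and 5 to 8 higher in PC2 against Non surgery.

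Replicate numbers do not pair the samples: correlations of same-numbered residuals lay between -0.0274 and 0.0567. With the replicate block 75 members fell in Luc against Non surgery, 66 rose in PC2 against Luc and 55 fell in PC2 against Non surgery. The lowest counts were those of Cox4i2, 31 to 50 per Non surgery library, and each group was 1 RNA pool.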
